A study of Mus musculus with 1 sample.

Results

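The S phase genes are 40 mouse genes whose transcripts are used as a signature of DNA replication. They were chosen by gene symbol as a list of such genes, without a rule on measured values, but with earlier results of these data known. All 40 symbols were found among the 51912 gene rows of the table. They were followed by sc-RNA Seq in a wild type (WT) C57BL/6 sample of P0 (newborn) mouse cerebral cortex. A single library was used, so that no value has a replicate error and no difference was tested. Brackets hold 95% intervals for counting error alone. The study also made conditional knock-in mice that carry human SERPINA3 under Nestin-Cre, and these were not analysed here. The labels do not say how many animals were pooled in the WT sample. Cells were sorted into classes by UMI counts of marker genes, none of which is a cell cycle gene (a UMI is a unique molecular identifier, which counts each captured transcript 1 time).

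In a dividing cell, replication origins are licensed in G1 by loading of the MCM helicase. In S phase the helicase is activated, polymerases copy both strands behind a sliding clamp, and the supply of nucleotides and histones rises with DNA synthesis. Many of the genes involved are transcribed under E2F factors as a cell passes from G1 into S phase, and most are low in cells that have left the cycle. In the newborn cortex, projection neurons are postmitotic, whereas radial glia, intermediate progenitors and glial precursors can still divide.

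E2F sites in promoters are a sequence feature that the choice of the genes did not use. RefSeq promoter windows on GRCm38.p6 (250 bases before to 50 after a start) were found for 30 of the 40 members, in 33 windows. Dscc1, Tipin, Gmnn, Gins2, Rfc2, Mcm4, Ccne2, Usp1, Atad2 and Exo1 had no entry. E2F was searched as TTTCCCGC, TTTCGCGC, TTTGCCGC or TTTGGCGC on either strand. A match occurred in 12 of the 33 member windows (36.4%, exact binomial interval 20.4 to 54.9), against 2.26% of all 32851 windows and 2.85% of the 21263 windows of coding genes. With TTTCGCGC and TTTGGCGC alone, the share was 21.2% of member windows and 0.813% of all windows. CCAAT, a short box found in many cell cycle promoters, was in 66.7% of member windows against 37.4% of all windows, and TTTGAA, the core of a motif of mitotic promoters, was in 18.2% against 17.9%. The members with an E2F match were Casp8ap2, Cdc6, Cdca7, Clspn, Dtl, Hells, Mcm5, Mcm6, Pola1, Pold3, Ubr7 and Uhrf1. A match is a run of letters and not a shown binding site, and no match says only that these letters are not in the window. The 160 bases before the start are printed for 6 members, with E2F matches in capitals. Mcm6 and Mcm5 are shown for their overlapping pairs of matches, Dtl for a match that ends at the start, Cdca7 and Pola1 as the members that were highest in GABAergic cells, and Nasp as the member with most UMIs, with no match.
Mcm6, chr1:128359706-128359865, minus strand: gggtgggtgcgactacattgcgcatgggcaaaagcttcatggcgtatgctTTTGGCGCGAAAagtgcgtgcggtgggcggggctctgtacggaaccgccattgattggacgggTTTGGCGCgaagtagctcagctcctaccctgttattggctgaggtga
Mcm5, chr8:75109349-75109508, plus strand: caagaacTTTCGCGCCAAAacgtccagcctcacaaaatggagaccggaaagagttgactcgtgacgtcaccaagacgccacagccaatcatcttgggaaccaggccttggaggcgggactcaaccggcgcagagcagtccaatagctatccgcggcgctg
Dtl, chr1:191575545-191575704, minus strand: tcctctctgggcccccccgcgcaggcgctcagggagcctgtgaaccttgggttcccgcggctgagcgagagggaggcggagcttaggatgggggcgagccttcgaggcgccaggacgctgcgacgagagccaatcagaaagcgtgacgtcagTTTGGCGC
Cdca7, chr2:72476059-72476218, plus strand: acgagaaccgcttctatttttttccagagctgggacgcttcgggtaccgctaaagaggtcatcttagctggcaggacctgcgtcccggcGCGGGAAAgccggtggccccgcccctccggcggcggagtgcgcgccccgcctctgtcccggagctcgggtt
Pola1, chrX:93632156-93632315, minus strand: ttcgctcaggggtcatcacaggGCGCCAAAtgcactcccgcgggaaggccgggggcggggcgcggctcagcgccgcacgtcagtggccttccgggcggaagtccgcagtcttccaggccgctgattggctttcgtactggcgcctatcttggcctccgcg
Nasp, chr4:116627952-116628111, minus strand: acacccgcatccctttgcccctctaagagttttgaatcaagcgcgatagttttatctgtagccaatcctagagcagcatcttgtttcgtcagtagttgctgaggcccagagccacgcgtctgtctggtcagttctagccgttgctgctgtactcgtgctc

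The library held 90346034 UMIs in 11062 cells, with a median of 7196.5 UMIs and 3037 genes per cell, and 4 cells in which under 200 genes were detected were removed. Of the 11058 cells kept, 8166 met exactly 1 gate. These were 6837 excitatory neurons (Neurod2 and Neurod6), 476 GABAergic cells of the interneuron gate (Gad and Dlx genes), 321 radial glia and astrocytes (at least 4 of 10 genes such as Slc1a3, Hes5 and Aldoc), 220 Eomes-positive cells, the state of intermediate progenitors and newborn neurons, 184 Olig-positive progenitors without Pdgfra, and 128 oligodendrocyte precursors with Pdgfra. Median depth without mitochondrial UMIs was 8895 in neurons, 4779 in the interneuron gate and 7078.5 to 8227 in the other classes. The radial glia and astrocyte gate also held vascular RNA. All 4 endothelial and all 4 mural markers were detected in it (939.8 and 282 CPM summed, CPM being UMIs per 1000000 non-mitochondrial UMIs), haemoglobin genes reached 3249 CPM, and 38 of its 321 cells had 3 or more vascular or immune UMIs, against 0 to 12 cells in the other classes. Microglial markers summed to at most 1.29 CPM in any class. Ependymal markers summed to 58.2 CPM in radial glia and astrocytes and 1.35 CPM in neurons, with Foxj1 (43.0 CPM) and Rsph1 (15.2 CPM) detected in the former and Ccdc153 and Tmem212 at 0 in every class. The Cajal-Retzius list summed to 148 CPM in the interneuron gate, nearly all from Reln (147 CPM), with Lhx5 at 0. Each class held its own gate markers, such as 1055 CPM of Pdgfra in oligodendrocyte precursors and 718 CPM of Eomes in Eomes-positive cells. The gates used these genes, so such levels are no separate check of the classes. Olig-positive progenitors without Pdgfra also carried the radial glia list at 5778 CPM, compared with 8306 CPM in radial glia and astrocytes and 2083 CPM in oligodendrocyte precursors, so that they shared genes of both.

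The first question was which classes carried the S phase genes. Summed over all 40 members, the level was 733 CPM (727 to 740) in excitatory neurons and 3259.8 CPM (3171 to 3351) in Olig-positive progenitors without Pdgfra, the highest class. It was 1512 CPM (1464 to 1562) in radial glia and astrocytes, 1559 CPM (1479 to 1642) in oligodendrocyte precursors, 1389 CPM (1337 to 1443) in Eomes-positive cells and 1330.5 CPM (1287 to 1375) in the interneuron gate. Relative to neurons, the ratios were 4.44 (4.32 to 4.58) for Olig-positive progenitors, 2.13 (2.02 to 2.24) for oligodendrocyte precursors, 2.06 (1.99 to 2.13) for radial glia and astrocytes, 1.89 (1.82 to 1.97) for Eomes-positive cells and 1.81 (1.75 to 1.88) for the interneuron gate. Oligodendrocyte precursors and radial glia could not be told apart by counting error (ratio 1.03, 0.969 to 1.10), nor could Eomes-positive cells and the interneuron gate (1.04, 0.992 to 1.10). Without the cells that had vascular or immune UMIs, the ratio to neurons was 2.30 (2.22 to 2.38) for radial glia and astrocytes. That of oligodendrocyte precursors was then lower, at 2.12 (2.01 to 2.24).

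Nasp, a chaperone of histones, dominated the sum in neurons. It supplied 31.0% of all member UMIs there, compared with 13.6% to 20.6% in the other classes. Without Nasp, the ratios to neurons were 5.56 (5.39 to 5.74) in Olig-positive progenitors, 2.55 in both radial glia and oligodendrocyte precursors, 2.18 in Eomes-positive cells and 2.11 in the interneuron gate. Medians over single cells lay closer together than the sums, apart from Olig-positive progenitors. The median cell had 7.16 member UMIs per 10000 in radial glia and astrocytes and 7.22 in neurons, but 18.1 in Olig-positive progenitors.

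Gene by gene, a level at least 2-fold above neurons was found for 38 of 40 members in Olig-positive progenitors (21.5% of the 16115 genes with 50 or more UMIs passed the same limit), 28 in oligodendrocyte precursors (19.6%), 27 in radial glia and astrocytes (23.6%), 26 in Eomes-positive cells (15.0%) and 24 in the interneuron gate (11.2%). All 40 members passed the count minimum, which was taken over all classes together. Cdc6 (63 UMIs, 23 of them in Olig-positive progenitors) and E2f8 (98, 55 of them there) passed only with the UMIs of that class, where they were highest. The count in oligodendrocyte precursors includes Cdc6 on 1 UMI (ratio 6.83, 0.159 to 47.0). No member was at or below the inverse of this limit in any class. The median member ratio was 7.79 in Olig-positive progenitors, 3.41 in oligodendrocyte precursors, 3.34 in radial glia and astrocytes, 2.90 in Eomes-positive cells and 2.84 in the interneuron gate, whereas the median over all genes lay between 0.986 and 1.04. Of the 40 members, 38 had their highest CPM in Olig-positive progenitors (15.2% of all genes did), 2 in the interneuron gate (16.6%), and 36 had their lowest in neurons (20.7%). When each cell was reduced to 2000 UMIs, the counts fell in every class. They were 32 in Olig-positive progenitors, 22 in radial glia and astrocytes, 17 in oligodendrocyte precursors, 14 in Eomes-positive cells and 15 in the interneuron gate. Neither the share over all genes nor the number of members over the count minimum is given for this depth. These counts are therefore not set against a background. Whether they fell through lower ratios or through fewer UMIs was not tested.

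**Figure D1:**
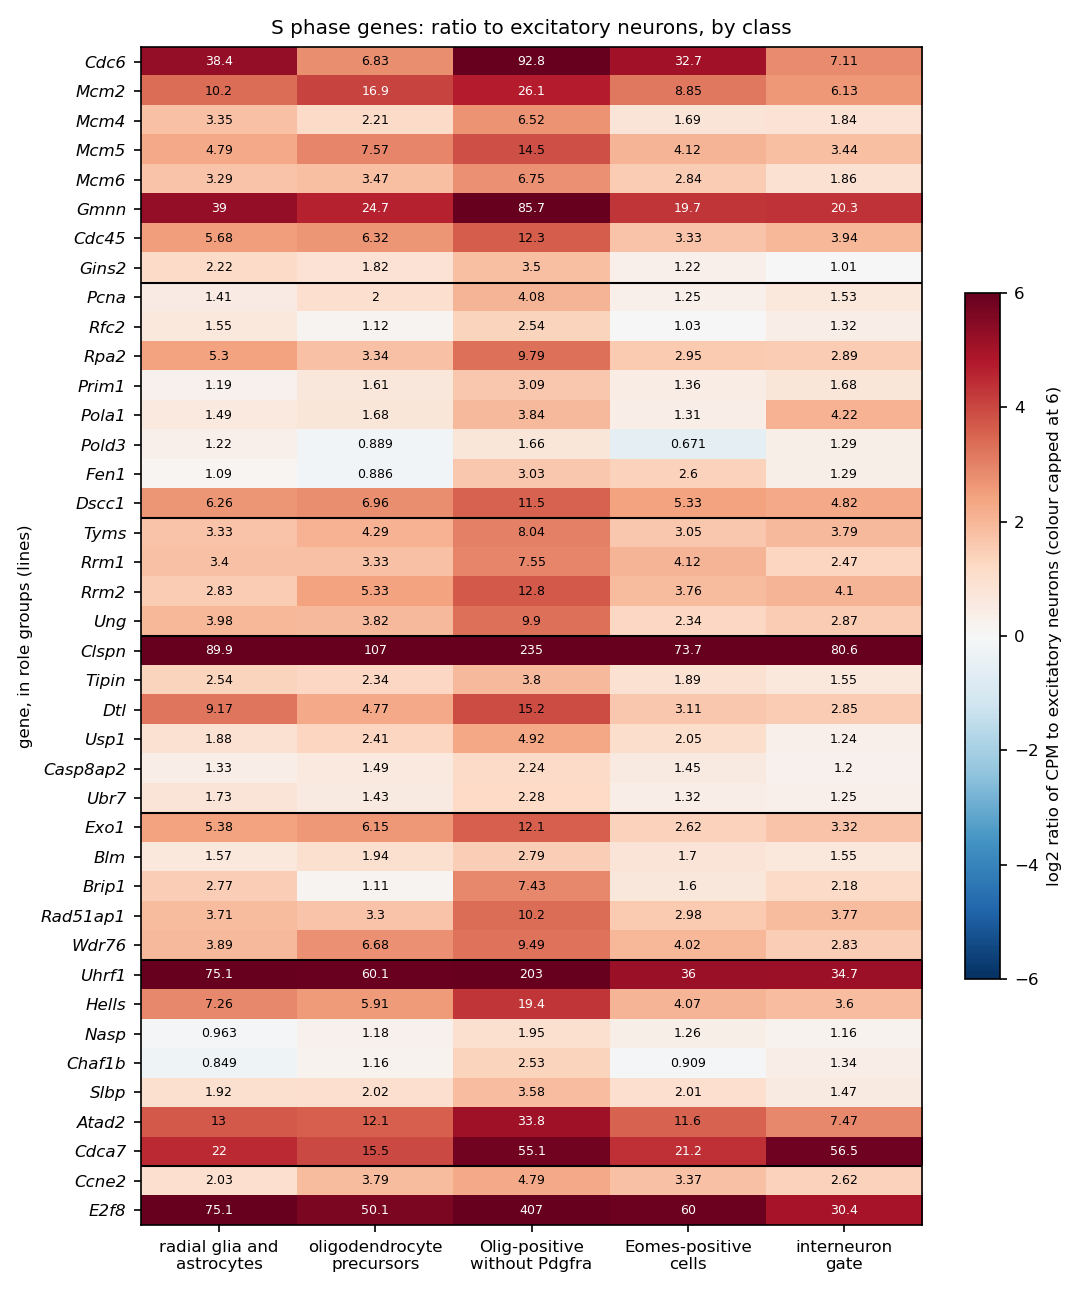
Ratio of CPM in each class (columns) to excitatory neurons for the 40 S phase genes (rows, in role groups separated by lines); colour gives the log2 ratio and the printed number the ratio itself. Clspn, Uhrf1 and E2f8 reach 75.1 or more in radial glia and astrocytes, while Nasp, Chaf1b and Pold3 stay within 0.671 to 2.53 in all 5 classes.

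Of 8 origin licensing and helicase genes, all reached 2-fold in radial glia and astrocytes (23.6% of all genes) and Olig-positive progenitors (21.5%). In oligodendrocyte precursors 7 did so (19.6%), in Eomes-positive cells 6 (15.0%) and in the interneuron gate 5 (11.2%). Mcm6, a subunit of the MCM helicase, had 17.3 CPM in neurons, 56.9 in radial glia and astrocytes, 60.1 in oligodendrocyte precursors, 117 in Olig-positive progenitors, 49.2 in Eomes-positive cells and 32.2 in the interneuron gate. Its ratio to neurons in radial glia was 3.29 (2.74 to 3.92). Gins2, a subunit of the GINS complex that completes the active helicase, had 12.0 CPM in neurons, 26.6 in radial glia and astrocytes, 42.0 in Olig-positive progenitors, 21.9 in oligodendrocyte precursors, 14.7 in Eomes-positive cells and 12.1 in the interneuron gate. Its levels in the last of these and in neurons could not be told apart (ratio 1.01, 0.687 to 1.44). Gmnn, which blocks a new round of licensing, was 39.0 times its level in neurons in radial glia (28.6 to 53.4) and 85.7 times in Olig-positive progenitors (64.2 to 115). Cdc6, which loads MCM, was scarce, with 15 UMIs in radial glia and astrocytes, 23 in Olig-positive progenitors, 1 in oligodendrocyte precursors and 11 in all neurons.

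Polymerases, the clamp and fork proteins had the lowest median ratio of the 7 role groups in radial glia and astrocytes, at 1.45. In radial glia and astrocytes 2 of 8 members reached 2-fold, a share close to the 23.6% of all genes. They were Rpa2, which coats single-stranded DNA (5.30, 4.28 to 6.50), and Dscc1, of an alternative clamp loader (6.26, 3.05 to 11.8). In Olig-positive progenitors 7 of 8 reached 2-fold (21.5% of all genes), with Pold3 the exception. Rfc2, a clamp loader subunit, had 37.0 CPM in neurons, 57.4 in radial glia and astrocytes, 41.5 in oligodendrocyte precursors, 94.2 in Olig-positive progenitors, 38.2 in Eomes-positive cells and 48.9 in the interneuron gate. Pold3, a subunit of DNA polymerase delta, had 32.0 CPM in neurons, 38.9 in radial glia and astrocytes, 28.4 in oligodendrocyte precursors, 52.9 in Olig-positive progenitors, 21.5 in Eomes-positive cells and 41.3 in the interneuron gate. In Eomes-positive cells it was the member whose interval lay below neurons (0.671, 0.480 to 0.914). Fen1, the flap nuclease of lagging strand maturation, had 17.3 CPM in neurons and 18.8 in radial glia and astrocytes (ratio 1.09, 0.794 to 1.46), 15.3 in oligodendrocyte precursors, 52.3 in Olig-positive progenitors, 45.0 in Eomes-positive cells and 22.4 in the interneuron gate. Pcna, the clamp itself, was 1.41 times its neuronal level in radial glia (1.07 to 1.82) and 4.08 times in Olig-positive progenitors (3.34 to 4.95).

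Nucleotide supply and uracil removal behaved uniformly, with all 4 members at least 2-fold above neurons in all 5 classes (11.2% to 23.6% of all genes, by class). Rrm1 and Rrm2 are the large and small subunits of ribonucleotide reductase. Rrm1 had 16.4 CPM in neurons, 55.7 in radial glia and astrocytes, 54.7 in oligodendrocyte precursors, 124 in Olig-positive progenitors, 67.5 in Eomes-positive cells and 40.5 in the interneuron gate. Rrm2 had 11.3 CPM in neurons, 32.0 in radial glia and astrocytes, 60.1 in oligodendrocyte precursors, 144 in Olig-positive progenitors, 42.4 in Eomes-positive cells and 46.2 in the interneuron gate. The ratio in Olig-positive progenitors was 7.55 (6.45 to 8.81) for Rrm1 and 12.8 (11.0 to 14.8) for Rrm2. Tyms, which makes thymidylate, and Ung, which removes uracil from DNA, had ratios of 3.33 and 3.98 in radial glia and astrocytes.

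The checkpoint, fork protection and ubiquitin group was mixed. Clspn, the mediator of the replication checkpoint, had the highest ratio of any member in radial glia and astrocytes, at 89.9 (54.3 to 154). It had 0.305 CPM in neurons (21 UMIs), 27.4 in radial glia and astrocytes, 32.8 in oligodendrocyte precursors, 71.7 in Olig-positive progenitors, 22.5 in Eomes-positive cells and 24.6 in the interneuron gate. Dtl, which targets licensing factors for destruction in S phase, followed in this group with 9.17 (7.35 to 11.4) in radial glia and astrocytes. Usp1, a deubiquitinase of the clamp, had 45.7 CPM in neurons, 86.0 in radial glia and astrocytes, 110 in oligodendrocyte precursors, 225 in Olig-positive progenitors, 93.7 in Eomes-positive cells and 56.8 in the interneuron gate. Casp8ap2, which takes part in histone mRNA processing, had 50.7 CPM in neurons, 67.2 in radial glia and astrocytes, 75.4 in oligodendrocyte precursors, 114 in Olig-positive progenitors, 73.3 in Eomes-positive cells and 60.6 in the interneuron gate. Its ratio in radial glia was 1.33 (1.13 to 1.55). Tipin, of the fork protection complex, and Ubr7, a ubiquitin ligase, had ratios of 2.54 and 1.73 there.

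Of the 5 recombination and repair genes, 4 reached 2-fold in radial glia and astrocytes (23.6% of all genes) and in the interneuron gate (11.2%). In Olig-positive progenitors 5 did so (21.5%), and 3 in oligodendrocyte precursors (19.6%) and in Eomes-positive cells (15.0%). Blm, the helicase lost in Bloom syndrome, was the exception in radial glia, with 16.9 CPM in neurons, 26.6 in radial glia and astrocytes, 32.8 in oligodendrocyte precursors, 47.1 in Olig-positive progenitors, 28.8 in Eomes-positive cells and 26.1 in the interneuron gate. Rad51ap1, a DNA-binding protein of homologous recombination, had 5.63 CPM in neurons, 20.9 in radial glia and astrocytes, 18.6 in oligodendrocyte precursors, 57.4 in Olig-positive progenitors, 16.8 in Eomes-positive cells and 21.2 in the interneuron gate. Exo1, an exonuclease of mismatch repair, Wdr76 and Brip1, a helicase that partners Brca1, had ratios of 5.38, 3.89 and 2.77 in radial glia and astrocytes.

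Chromatin genes differed widely among themselves in radial glia and astrocytes. Uhrf1, which brings the maintenance methyltransferase to newly copied DNA, had 0.436 CPM in neurons (30 UMIs), 32.8 in radial glia and astrocytes, 26.2 in oligodendrocyte precursors, 88.4 in Olig-positive progenitors, 15.7 in Eomes-positive cells and 15.2 in the interneuron gate. Its ratio in radial glia and astrocytes was 75.1 (48.8 to 118). Nasp had 227 CPM in neurons and a similar 219 in radial glia and astrocytes (ratio 0.963, 0.882 to 1.05), with 268 in oligodendrocyte precursors, 443 in Olig-positive progenitors, 287 in Eomes-positive cells and 264 in the interneuron gate. Chaf1b, a subunit of the histone chaperone CAF-1, had 17.8 CPM in neurons, 15.2 in radial glia and astrocytes (ratio 0.849, 0.595 to 1.18), 20.8 in oligodendrocyte precursors, 45.2 in Olig-positive progenitors, 16.2 in Eomes-positive cells and 23.9 in the interneuron gate. Slbp, which binds the stem-loop of histone mRNAs, had 40.02 CPM in neurons, 77.0 in radial glia and astrocytes, 80.9 in oligodendrocyte precursors, 143 in Olig-positive progenitors, 80.6 in Eomes-positive cells and 58.7 in the interneuron gate. Hells, a chromatin remodeller, and Atad2, a bromodomain ATPase, reached 7.26 and 13.0 times their neuronal levels in radial glia and astrocytes.

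Ccne2, a cyclin E that drives entry into S phase, and E2f8, an atypical E2F that represses E2F targets, were both scarce. Ccne2 had 2.02 CPM in neurons, 4.10 in radial glia and astrocytes (ratio 2.03, 0.951 to 3.84), 7.65 in oligodendrocyte precursors, 9.68 in Olig-positive progenitors, 6.80 in Eomes-positive cells and 5.31 in the interneuron gate. E2f8 had 0.0873 CPM in neurons, which was 6 UMIs in 6837 cells, 6.55 in radial glia and astrocytes, 4.37 in oligodendrocyte precursors, 35.5 in Olig-positive progenitors, 5.23 in Eomes-positive cells and 2.65 in the interneuron gate. Its ratio was 75.1 (27.9 to 234) in radial glia and astrocytes.

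Other genes of the pathway were counted from lists. Among 32 other replication genes, all above the count minimum, 27 were at least 2-fold above neurons in Olig-positive progenitors (21.5% of all genes), 20 in Eomes-positive cells (15.0%), 19 in oligodendrocyte precursors (19.6%), 18 in radial glia and astrocytes (23.6%) and 12 in the interneuron gate (11.2%). Of single genes, named after their values were seen, Mcm3, of the same helicase as Mcm6, was 32.1 times its neuronal level in radial glia and astrocytes, whereas Orc6, of the origin recognition complex, was at 0.705 and the maintenance methyltransferase Dnmt1 at 0.729. Of 19 regulators of G1, 16 were 2-fold higher in Olig-positive progenitors (21.5% of all genes), 14 in radial glia and astrocytes (23.6%), 12 in oligodendrocyte precursors (19.6%), 11 in Eomes-positive cells (15.0%) and 7 in the interneuron gate (11.2%), and Cdkn1c, a cyclin-dependent kinase inhibitor, was lower in radial glia (0.288). All 10 mitosis genes and both Mki67 and Top2a were at least 2-fold higher in each of the 5 classes (11.2% to 23.6% of all genes, by class). Of 13 replication histones, 9 passed the count minimum and 7 to 9 of them were 2-fold higher, beside the same shares of all genes. Most such histone mRNAs lack the poly(A) tail that the method captures, and their near-identical copies may share reads, so single histone genes are uncertain.

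To compare single cells at equal depth, each cell was reduced to 2000 non-mitochondrial UMIs, and shallower cells were left out (33 radial glia and astrocytes, 7 oligodendrocyte precursors, 7 Olig-positive progenitors, 3 Eomes-positive cells, 63 of the interneuron gate and 313 neurons). At least 5 member UMIs were then found in 46.3% of Olig-positive progenitors (38.8 to 54.0), 15.6% of radial glia and astrocytes (11.6 to 20.3), 14.9% of oligodendrocyte precursors (9.06 to 22.5), 12.0% of Eomes-positive cells (7.98 to 17.1) and 9.44% of the interneuron gate (6.80 to 12.7). Excitatory neurons, in which the genes should not be used for replication, gave 2.33% (1.98 to 2.73) as the background. Without equal depth the shares were 77.2%, 56.1%, 56.3%, 73.6%, 42.6% and 68.7% in the same order with neurons last. The neuronal share then exceeded that of radial glia, against the order of the CPM, and no order was read from these values. A limit of 5 cuts through a continuous range, and 29 radial glia and astrocytes, 13 oligodendrocyte precursors, 24 Olig-positive progenitors, 22 Eomes-positive cells, 29 cells of the interneuron gate and 415 neurons had 4 or 5 member UMIs.

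**Figure D2:**
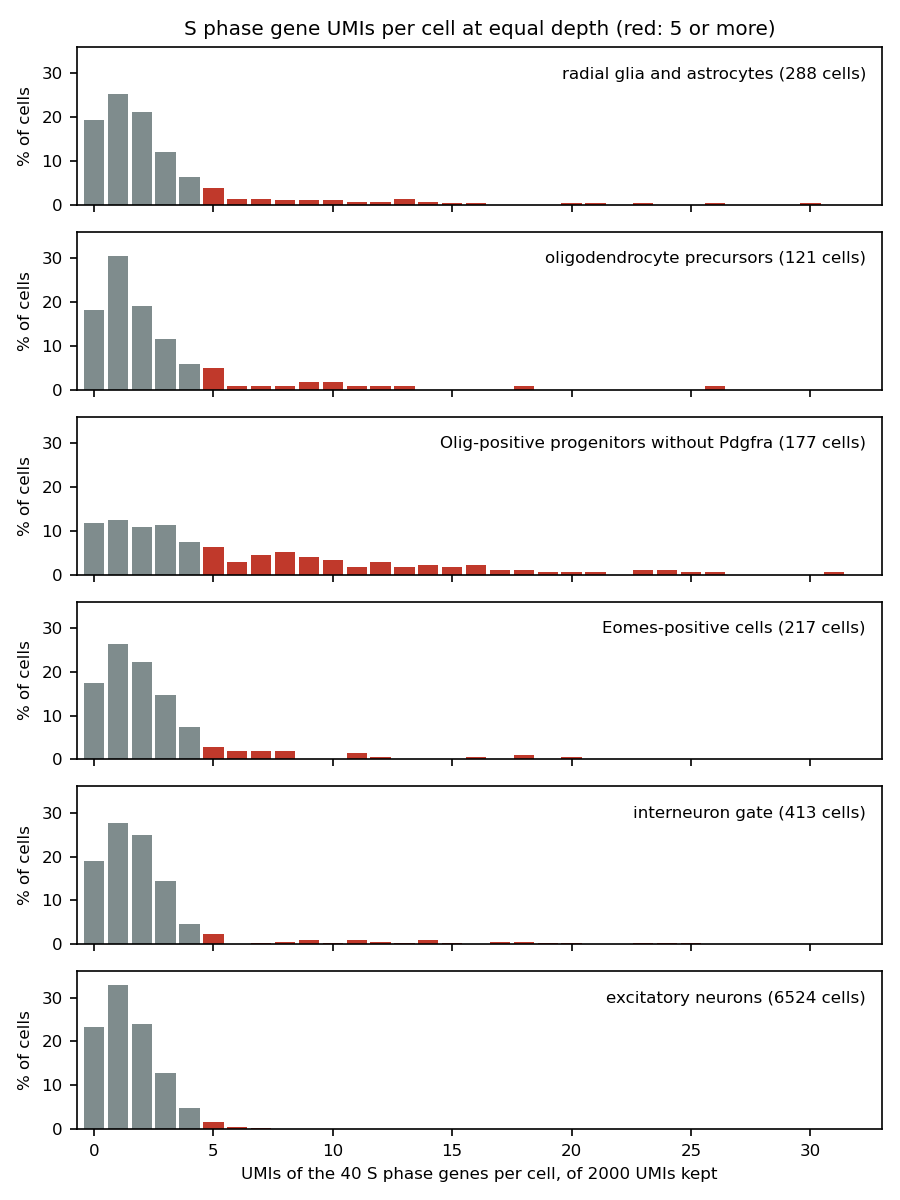
Share of cells (vertical axis, %) by the number of S phase gene UMIs in 2000 kept UMIs (horizontal axis), for each class, with 5 or more UMIs in red. Neurons end at 8 UMIs, while every other class has a tail to between 20 and 31.

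Cells with many member UMIs were nearly absent among neurons. At least 8 member UMIs were found in 32.8% of Olig-positive progenitors, 9.03% of radial glia and astrocytes, 8.26% of oligodendrocyte precursors, 6.78% of the interneuron gate and 5.53% of Eomes-positive cells, but in 3 of 6524 neurons (0.0460%). These cells held 71.8% of all member UMIs of their class in Olig-positive progenitors, 42.8% in radial glia and astrocytes, 39.1% in oligodendrocyte precursors, 38.4% in the interneuron gate, 27.4% in Eomes-positive cells and 0.244% in neurons. Mki67 or Top2a, which were not used here to pick the cells, had a UMI in 84.6% of radial glia and astrocytes with 8 or more member UMIs and in 16.5% of those with fewer than 5, or in 13 of 26 and 22 of 243 cells when these genes too were counted at equal depth. Counted in whole cells, the shares were 77.6% and 28.4% in Olig-positive progenitors, and 85.7% and 3.21% in the interneuron gate. Single members varied in this contrast at this depth. It was large for Clspn and Uhrf1, which were among the members with the highest ratio of radial glia to neurons. Clspn had a UMI in 4.17% of radial glia and astrocytes against 0.0613% of neurons (9.35% and 0.307% before reduction), and Uhrf1 in 5.21% against 0.123% (12.8% and 0.439%). Nasp had a UMI in 30.6% of radial glia and astrocytes and in 36.6% of neurons (56.1% and 81.2%). Other members also lacked the contrast. Fen1 had a UMI in 3.47% and 3.56% of these classes (9.35% and 15.4%). For Prim1 the shares were 4.17% and 4.02% (13.1% and 17.2%), and for Chaf1b 2.08% and 3.89% (7.79% and 15.8%).

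Whether the members moved with other cell cycle genes was examined in radial glia, oligodendrocyte precursors and Olig-positive progenitors together, using genes that are not members. The 102 cells with at least 3 UMIs of the 10 mitosis genes had 3988 CPM of S phase genes (3870 to 4108), and the 145 cells with no UMI of the histone and mitosis lists, Mki67 or Top2a had 919 CPM (849.7 to 993). The ratio was 4.34 (3.99 to 4.72). The classes were mixed unequally, since Olig-positive progenitors made up 58 of the former and 20 of the latter cells. Within classes the ratio was 5.48 (4.68 to 6.43) in oligodendrocyte precursors, 5.05 (4.42 to 5.79) in radial glia and astrocytes and 2.16 (1.85 to 2.54) in Olig-positive progenitors. Median depth differed as well, at 10302 UMIs in the mitosis gate and 5285 in the cells with none. Cells with none were close to neurons in radial glia and astrocytes (757 CPM, 1.03 times neurons, 0.911 to 1.16), oligodendrocyte precursors (815 CPM, 1.11 times, 0.967 to 1.27), Eomes-positive cells (820.5 CPM, 1.12 times, 1.01 to 1.23) and the interneuron gate (771 CPM, 1.05 times, 0.985 to 1.12). In Olig-positive progenitors, 20 such cells still had 1836 CPM, 2.50 times neurons (2.14 to 2.91), with a median depth of 4059.5 UMIs.

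**Figure D3:**
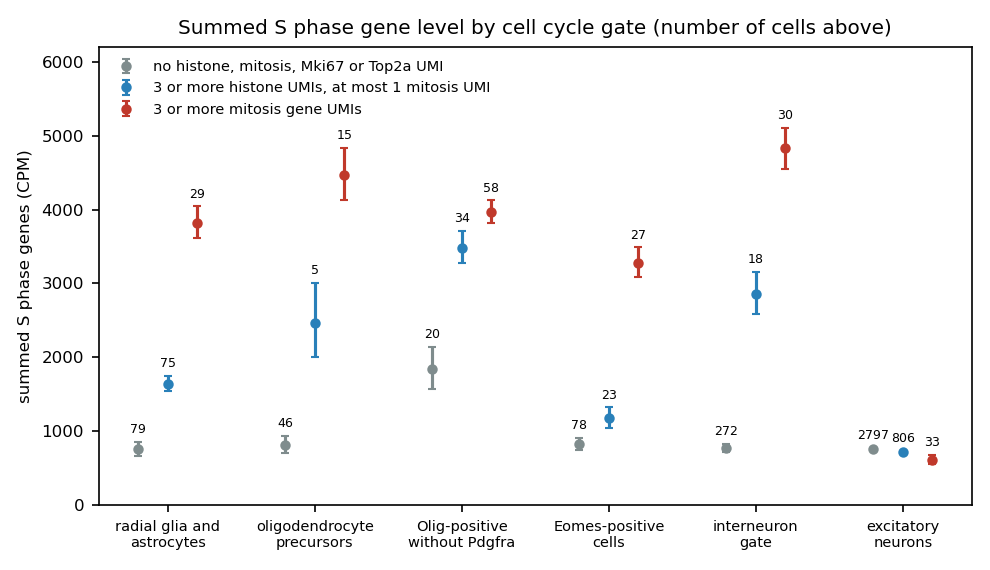
Summed S phase gene level (CPM, with 95% counting interval) in cells of each class with no UMI of the histone and mitosis lists, Mki67 or Top2a (grey), with histone UMIs (blue) and with mitosis gene UMIs (red). The number of cells stands above each point. Neurons stay between 613 and 762 CPM in all 3 groups, while mitosis gate cells of the other classes lie between 3279 and 4826 CPM.

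The histone list gave a weaker gate. Its 114 progenitors, with at least 3 histone UMIs and at most 1 of a mitosis gene, had 2253 CPM (2157 to 2352). However, 806 neurons met it too, with a summed S phase level of 717 CPM (702 to 732), which was 0.977 times that of all neurons. A gate chosen after seeing the data took Hist1h1b in place of the list, with at least 2 Hist1h1b UMIs and at most 1 of a mitosis gene. It was met by 2 neurons and 18 progenitors, and the latter had 2931 CPM (2647 to 3236). Mitosis gate cells themselves had 1143.5 CPM of Hist1h1b against 382 in the Hist1h1b gate, so that high Hist1h1b was not limited to the latter. Which phases the cells of each gate were in was not tested.

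Within the progenitors, 37 of the 40 members had a ratio of the mitosis gate to cells with none whose interval lay above 1 (13.5% of the 9788 genes tested in progenitors). Cdc6, Pola1 and Ung did not. Of the 37 members with 50 or more UMIs in these cells, 34 were at least 2-fold higher (7.35% of genes). Cdc6, Dscc1 and Ccne2 fell under this count minimum. The ratio was 40.6 for Clspn (11.0 to 339), 22.6 for Rrm2 (10.8 to 56.7), 17.3 for Uhrf1 (7.22 to 54.1), 16.8 for Gmnn (7.57 to 46.6), 3.90 for Nasp (3.16 to 4.86) and 1.55 for Casp8ap2 (1.11 to 2.17). Exo1 had 28 UMIs in the mitosis gate and 0 in cells with none. In cells with none, 20 of 40 members had an interval above neurons (35.3% of genes did), and Nasp alone had an interval below neurons, at 145 CPM or 0.640 times (0.521 to 0.777), where 19.0% of genes did.

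**Figure D4:**
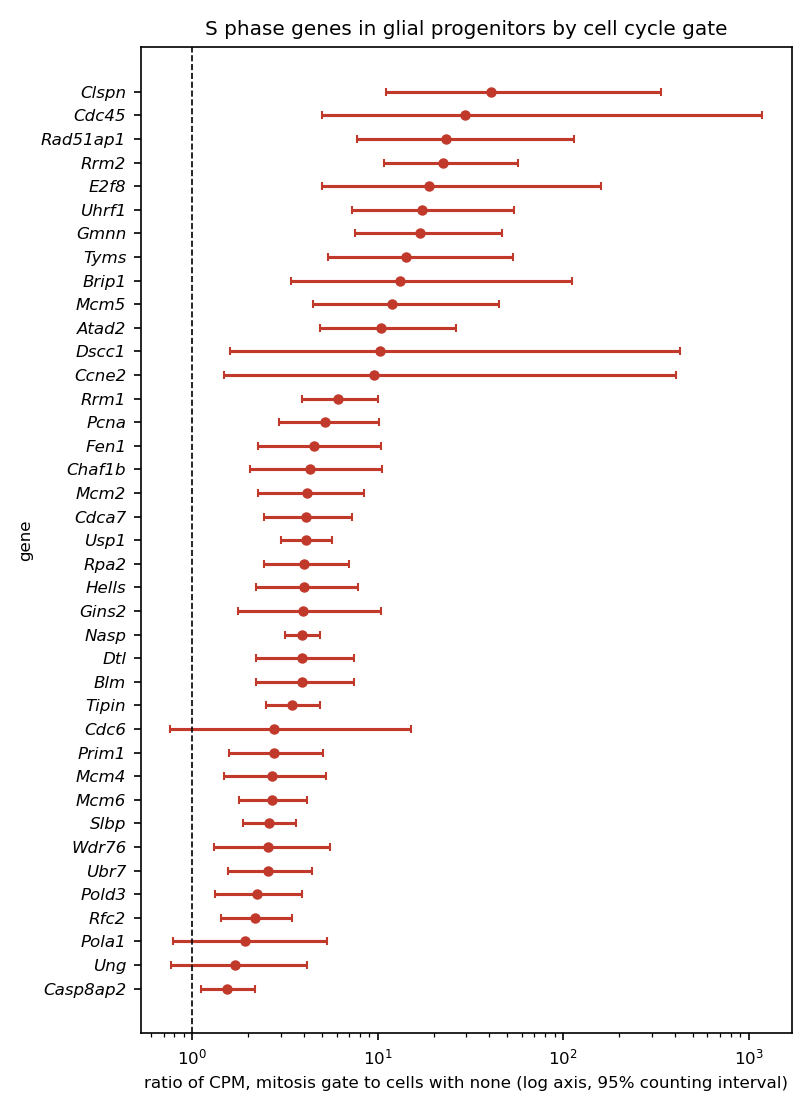
Ratio of CPM between progenitors with mitosis gene UMIs and progenitors with no UMI of the histone and mitosis lists, Mki67 or Top2a (horizontal axis, logarithmic, with 95% counting interval) for 39 S phase genes, ordered by the ratio. Exo1, at 0 UMIs in the progenitors without such UMIs, is not drawn. Points run from 1.55 for Casp8ap2 to 40.6 for Clspn, and the intervals of Cdc6, Pola1 and Ung reach below 1.

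Some members were lower, relative to all UMIs, in the 18 cells of the Hist1h1b gate than in the mitosis gate, with an interval of the ratio below 1 for 11 members (4.63% of genes). An interval above 1 was found for 2 of 40, Ung and Exo1, a share close to the 4.53% of all genes. Atad2 had 1 UMI in the Hist1h1b gate and 114 in the mitosis gate (ratio 0.0721, 0.00181 to 0.410), Rad51ap1 2 and 109 (0.151, 0.0180 to 0.558), Gmnn 3 and 158 (0.156, 0.0318 to 0.464), Blm 2 and 85 (0.193, 0.0230 to 0.720), Clspn 3 and 127 (0.194, 0.0395 to 0.580), and E2f8 0 and 59. The others were Uhrf1, Rrm1, Rrm2, Usp1 and Nasp, with ratios of 0.426 to 0.687. The MCM subunits Mcm2, Mcm4, Mcm5 and Mcm6 had ratios of 1.11 to 1.81 with intervals that held 1, as did 27 members in all. Against cells with none, 30 of the 37 members over the count minimum were at least 2-fold higher in the Hist1h1b gate (8.3% of genes).

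Cdca7 and Pola1, named after their values were seen, were the members that did not peak in Olig-positive progenitors by CPM. Cdca7, a zinc finger partner of Hells, had 116 CPM in the interneuron gate, 113 in Olig-positive progenitors, 45.1 in radial glia and astrocytes, 43.4 in Eomes-positive cells, 31.7 in oligodendrocyte precursors and 2.05 in neurons. The leading pair did not differ beyond counting error, with ratios to neurons of 56.5 (46.2 to 69.5) and 55.1 (43.9 to 69.2). Interneuron gate cells with no UMI of the histone and mitosis lists, Mki67 or Top2a still had 51.2 CPM (39.3 to 65.5). This compared with 22.8 (9.86 to 45.0) in such radial glia and astrocytes, 7.69 (0.932 to 27.8) in oligodendrocyte precursors, 19.5 (9.35 to 35.8) in Eomes-positive cells and 2.53 (1.88 to 3.32) in neurons. Such Olig-positive progenitors had 76.5 CPM (30.8 to 158) from 7 UMIs, and could not be told from the interneuron gate. At the other end, interneuron gate cells with 8 or more UMIs of the other members had 713 CPM of Cdca7 (603 to 837), compared with 148 (103 to 205) in radial glia and astrocytes, 167 in oligodendrocyte precursors, 188 in Eomes-positive cells and 199 in Olig-positive progenitors of that range. Pola1, the catalytic subunit of the priming polymerase, had 22.0 CPM in the interneuron gate (16.7 to 28.4), 20.01 in Olig-positive progenitors (13.6 to 28.4) and 5.21 in neurons. The intervals of the interneuron gate and Olig-positive progenitors overlapped almost wholly, so that the class with the highest level is not settled. Interneuron gate cells with no histone, mitosis, Mki67 or Top2a UMI had 23.6 CPM of Pola1 (15.8 to 33.9), against 4.90 (3.98 to 5.97) in such neurons. The intervals of such Olig-positive progenitors (21.9 CPM, 2.65 to 79.0) and radial glia and astrocytes (11.4 CPM, 3.11 to 29.2) overlapped that of the interneuron gate.

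Marker genes used for the gates differed between cells rich and poor in S phase transcripts within a class. The 45 radial glia and astrocytes with 5 or more member UMIs had less Hopx (84.1 against 257 CPM, ratio 0.328, 0.223 to 0.468), Aldoc (833 against 2043, 0.408, 0.363 to 0.458) and Slc1a3 (1093 against 2192, 0.499, 0.449 to 0.552) than the 129 with at most 1. Mfge8, Sox9, Tnc, Hes5, Ednrb and Ddah1, of the same gate list, were lower too, with ratios of 0.609 to 0.767 and intervals below 1. Pax6, a radial glia factor, was level (339 against 348, 0.973, 0.793 to 1.19). Hopx, Aldoc and Slc1a3 had ratios of 0.345, 0.186 and 0.456 in Olig-positive progenitors, where 82 cells were rich and 43 poor. Mfge8, Sox9, Tnc, Hes5, Ednrb and Ddah1 had 0.543 to 0.814 there, with intervals below 1. In oligodendrocyte precursors (18 rich, 59 poor), ratios were 0.574 (0.462 to 0.708) for Pdgfra, 0.627 (0.537 to 0.729) for Olig1 and 0.886 (0.708 to 1.10) for Olig2. In Olig-positive progenitors, Olig1 was lower in rich cells (0.544, 0.456 to 0.65), and the interval of Olig2 held 1 (1.11, 0.896 to 1.38). In the interneuron gate (39 rich, 192 poor), Dlx2 (2.21, 1.75 to 2.78), Dlx1 (1.94, 1.65 to 2.29) and Gad2 (1.27, 1.07 to 1.51) were higher in rich cells. Slc32a1, the vesicular GABA transporter (0.339, 0.197 to 0.549), and Gad1 (0.652, 0.461 to 0.902) were lower. Dlx5 (1.10, 0.760 to 1.56) and Dlx6os1 (1.15, 0.912 to 1.43) had intervals that held 1. In Eomes-positive cells (26 rich, 95 poor), Eomes did not differ (0.947, 0.800 to 1.12) and Neurod2 was lower (0.473, 0.349 to 0.630). The interval of Neurod6 held 1 there (0.836, 0.685 to 1.01). Rich cells were deeper in each class, for example 9199 against 7240 UMIs in radial glia and astrocytes, and the part of depth in these ratios was not tested.

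Outside all lists, the 10 genes most raised in cells rich in member UMIs, in both radial glia and the Olig-positive progenitors (with and without Pdgfra), were Pclaf, Smc2, Cdca8, Kif11, Prc1, Spc25, Cdk1, Esco2, Pbk and Knl1. The cells were picked by the members, so the values are a description. Pclaf, a clamp binding protein, had 298 CPM in radial glia and astrocytes with 5 or more member UMIs and 7.27 in those with at most 1, and 432 and 5.55 in the Olig-positive cells. Esco2, which establishes cohesion of sister chromatids during S phase, had 125 and 1.04 CPM, and 131 and 0. The other 8 act in chromosome condensation or mitosis, such as Smc2 of condensin (411 and 17.7 CPM in radial glia and astrocytes) and the mitotic kinase Cdk1 (271 and 12.5).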

How the data were processed

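Cells of a P0 WT mouse cortex were digested in papain, captured with 10x Genomics Chromium 3′ chemistry and sequenced on an Illumina HiSeq. Per the submitters' processing notes, STAR, Cell Ranger and Seurat were used with the build mm9. How cells were called, and with which gene annotation, is not given in the sources used here. The authors deposited raw UMI counts per gene and cell, with no normalization. A second deposited table holds each cell's total count and number of genes, and both equalled the sums of the first in all 11062 cells. Mitochondrial genes took 3.90% of UMIs and were left out of totals.

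The 40 members, their role groups, the other gene lists and the gates were chosen with earlier results of these data known. Gates used marker UMIs: Olig1 and Olig2 at least 2, with Pdgfra at least 1 (oligodendrocyte precursors) or 0; at least 4 of 10 radial glia genes; Eomes at least 2; at least 4 UMIs of 2 or more of 7 GABAergic genes; Neurod2 and Neurod6 at least 3. Cells that met 2 or more gates (306) were left out. No doublet caller was run, and values were recomputed without cells above 2 times the median depth of their class. Cells that met no gate (2586) were in no class.

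UMIs were pooled per class and divided by non-mitochondrial UMIs (CPM), with exact Poisson 95% intervals. Ratios have conditional exact binomial intervals and shares exact (Clopper-Pearson) ones. All cover counting error only. Genes with at least 50 UMIs formed the background for a 2-fold limit. Cells were thinned without replacement to 2000 UMIs. Levels in every class were given for the 2 members of each role group with most UMIs and for the 3 with the highest and the 3 with the lowest ratio of radial glia to neurons. Genes outside the lists were ranked on CPM with 10 added, among those with at least 30 UMIs. Promoter letters came from RefSeq windows on GRCm38.p6. A planned search of proteins was not run, as no protein table was used here. Python 3.11.15, numpy 2.4.6, scipy 1.17.1, pandas 2.3.3 and matplotlib 3.10.9 were used. Ratios and thinning were tested on simulated data. Alternatives covered the gates, cell filters, depth, deep cells, averaging, members, cut-offs, seed and motif.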

Additional observations from a re-analysis of the deposited data

Results flagged for a closer look

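Cells outside the 6 classes were not part of the comparisons and also held S phase transcripts. At equal depth, 22.0% of cells that had met 2 or more gates had at least 5 member UMIs (67 of 304), above the 2.33% of excitatory neurons. Of these 67 cells, 59 had a UMI of Mki67 or Top2a, all 67 had UMIs of the radial glia list, 47 of the Olig and Pdgfra list, 59 of the GABAergic list and 47 of the excitatory neuron list, haemoglobin UMIs in 8 cells came to 2322 CPM, and their median depth was 13115 UMIs. Among cells that met no gate, 4.98% had at least 5 (20 of 402, with the other 2184 such cells too shallow to be counted), of which 7 had a UMI of Mki67 or Top2a. In those 20 cells, 13 had UMIs of the excitatory neuron list, 6 of the GABAergic list and 3 of the radial glia list. These lists summed to 244, 134 and 305.5 CPM. Microglial UMIs were in 3 cells and Cajal-Retzius UMIs in 2, at 745 and 1100 CPM of the summed lists. Why cells outside the classes held member UMIs was not tested.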

How the results depend on the processing

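No paired analysis was possible because only a single library was analysed. The summed ratios to neurons stayed above 1 under every alternative run. Over all results, 86 of 140 values stayed close to the reported ones. Among the summed ratios, 16 values stayed close and 29 moved. For counts of members at 2-fold, 37 stayed close and 3 moved, and for shares of cells 23 stayed close and 19 moved. Most of the moved shares came from another cut-off or from no thinning. Those settings change the quantity itself, so the tally does not measure how stable the shares are. The summed ratios to neurons, in the order radial glia and astrocytes, oligodendrocyte precursors, Olig-positive progenitors, Eomes-positive cells and interneuron gate, were 2.21, 1.95, 4.85, 2.24 and 2.28 under stricter gates, 1.93, 1.77, 4.17, 1.66 and 1.65 at 2000 UMIs per cell, 1.77, 1.70, 3.86, 1.67 and 1.54 as the mean of per-cell shares, and 2.55, 2.55, 5.56, 2.18 and 2.11 without Nasp. Keeping cells that met several gates gave 2.14, 2.76, 4.07, 1.93 and 1.55 in that order. Leaving out the deepest cells gave 1.84, 1.79, 4.28, 1.92 and 1.69. Oligodendrocyte precursors, above radial glia in the reported values, were below them under stricter gates, at 2000 UMIs, as means of shares and without the deepest cells. They were also below radial glia without cells that had vascular or immune UMIs. Eomes-positive cells passed radial glia and oligodendrocyte precursors under stricter gates and without the deepest cells. The interneuron gate passed radial glia, oligodendrocyte precursors and Eomes-positive cells under stricter gates. Without cells with vascular or immune UMIs, an alternative chosen after seeing the data, radial glia and astrocytes stood at 2.30 and oligodendrocyte precursors at 2.12. No share over all genes is given at 2000 UMIs per cell, so the counts of members at 2-fold there have no background beside them. Fewer UMIs were counted at that depth, and these counts fell to 22, 17, 32, 14 and 15 in the order of the summed ratios. Shares of cells, in the same order with neurons last, were 34.0%, 32.2%, 65.0%, 34.1%, 28.6% and 19.9% for at least 3 member UMIs, 9.03%, 8.26%, 32.8%, 5.53%, 6.78% and 0.0460% for at least 8, and 56.1%, 56.3%, 77.2%, 73.6%, 42.6% and 68.7% with no thinning, where neurons stood above 3 classes that they stood below at equal depth. Stricter gates gave 13.5% for the interneuron gate. The ratio of the histone gate to cells with none was 2.45, and it was 2.74 at 2000 UMIs and 4.64 with gates of 6 UMIs. It was 3.19 with Hist1h1b in place of the histone list, chosen after seeing the data. The cause of these shifts was not tested. A single library, scarce members such as Cdc6 and E2f8, and gates of 18 to 145 cells limit these values, and the intervals do not hold the spread between animals.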

Other observations

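Sox2, a factor of neural progenitors that was in no list and was chosen after its values were seen, differed little between cells rich and poor in S phase transcripts. Radial glia and astrocytes with 5 or more member UMIs had 480.4 CPM of Sox2, against 581 CPM in those with at most 1 (ratio 0.827, 0.700 to 0.974). The ratio was 1.31 (0.983 to 1.72) in oligodendrocyte precursors and 0.872 (0.728 to 1.05) in Olig-positive progenitors without Pdgfra.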
